A study of Mus musculus with 8 samples.

Results

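A group of 10 genes of nitrogen disposal was followed, listed by symbol. Of these, 7 are periportal genes, Cps1, Otc, Ass1, Asl, Arg1, Gls2 and Hal, and 3 are pericentral genes, Glul, Oat and Rhbg. They make up 10 of the 24532 genes in the deposited annotation. Poly(A) RNA had been sequenced from liver and subcutaneous fat of male C57BL/6 mice on a high-fat diet (HFD). The labels give a start of the diet at 6 weeks of age, 19 weeks on it and an age of 24 weeks, which do not add up exactly, and the published methods state a shorter diet. The MKRN1-null mice carried no intact copy of Mkrn1, which encodes a RING-type ubiquitin ligase, and had been backcrossed to C57BL/6, and the WT mice were their littermates. Each genotype was represented by 2 libraries per tissue, called library 1 and library 2 below, and no group without the HFD was analysed here. The comparison asked how gene expression differed between MKRN1-null and WT liver on the HFD. The paper reports lower body weight and less liver fat in MKRN1-null than in WT mice on this diet. Direct effects of genotype and those of body weight or liver fat cannot be told apart here.

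Blood enters a liver lobule at the portal vein and leaves at the central vein, and hepatocytes along this path carry different enzymes. Periportal hepatocytes take up amino acids and ammonia and run the urea cycle, in which carbamoyl phosphate synthetase, ornithine transcarbamylase, argininosuccinate synthetase, argininosuccinate lyase and arginase turn ammonia into urea. A thin layer of hepatocytes around the central vein captures the ammonia that is left over by joining it to glutamate with glutamine synthetase. The arrangement is known for its high capacity on the periportal side and its high affinity on the pericentral side, and the pericentral programme depends on Wnt and beta-catenin signalling. A bulk liver library averages over the zones, so fewer cells of a zone and less RNA per cell cannot be told apart.

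Liver of MKRN1-null mice held more Cps1, Gls2, Hal and Oat RNA and less Glul and Rhbg RNA than liver of WT mice. Cps1 was 2.17-fold higher and Rhbg 3.38-fold lower on the FPKM scale (fragments per kilobase of transcript, scaled to library size, a level that allows for gene length). All 7 periportal genes lay above 0 and 3 of them passed the test. The Ass1 entry was tested only because both MKRN1-null libraries reached 1 FPKM, so its direction was fixed by that filter. The sum over the Ass1 locus, described below, also lay above 0 (log2 0.41). Of the 10822 genes tested, 2569 lay above 0 and 8253 below. The pericentral genes split, since Oat rose while Glul and Rhbg fell. A test with limma on the log2(FPKM + 1) scale over 10822 genes called 4 members higher and 2 lower (adjusted p under 0.05). Of all genes tested 2.51% were called higher and 16.9% lower. By a looser rule, an unadjusted limma p of 0.05 or less and a log2 change of 0.58 or more in size, 2 members were higher and 2 lower, against 2.25% and 13.4% of all genes. The median gene was shifted by -0.18 (log2) in MKRN1-null liver, whereas the median of the periportal members was 0.36 and that of the pericentral members -0.77. These are the values of Asl, which did not pass, and of Glul, with Oat at 0.57 and Rhbg at -1.29. With the summed Ass1 locus the periportal median was 0.41. After median-of-ratios scaling, which moved the median gene to -0.02, the medians were 0.55 and -0.58 and the same number of members passed. That scaling changed the balance of calls over all genes, from 272 higher and 1834 lower to 405 higher and 857 lower. With 2 libraries a group, calls were lost when a library was left out, which leaves 1 library in a group. The log2 changes of the called members then kept their direction. They ran from 1.01 to 1.21 in Cps1, 0.34 to 0.52 in Gls2 and 0.65 to 0.77 in Hal. The ranges were 0.52 to 0.62 in Oat, -0.84 to -0.70 in Glul and -1.38 to -1.20 in Rhbg. Without MKRN1-null library 2, 0 members passed by limma, and 3 of all genes were higher and 49 lower, although 3 members were still higher and 2 lower by the looser rule, and without WT library 1 the members called were Cps1 and Rhbg.

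**Figure D1:**
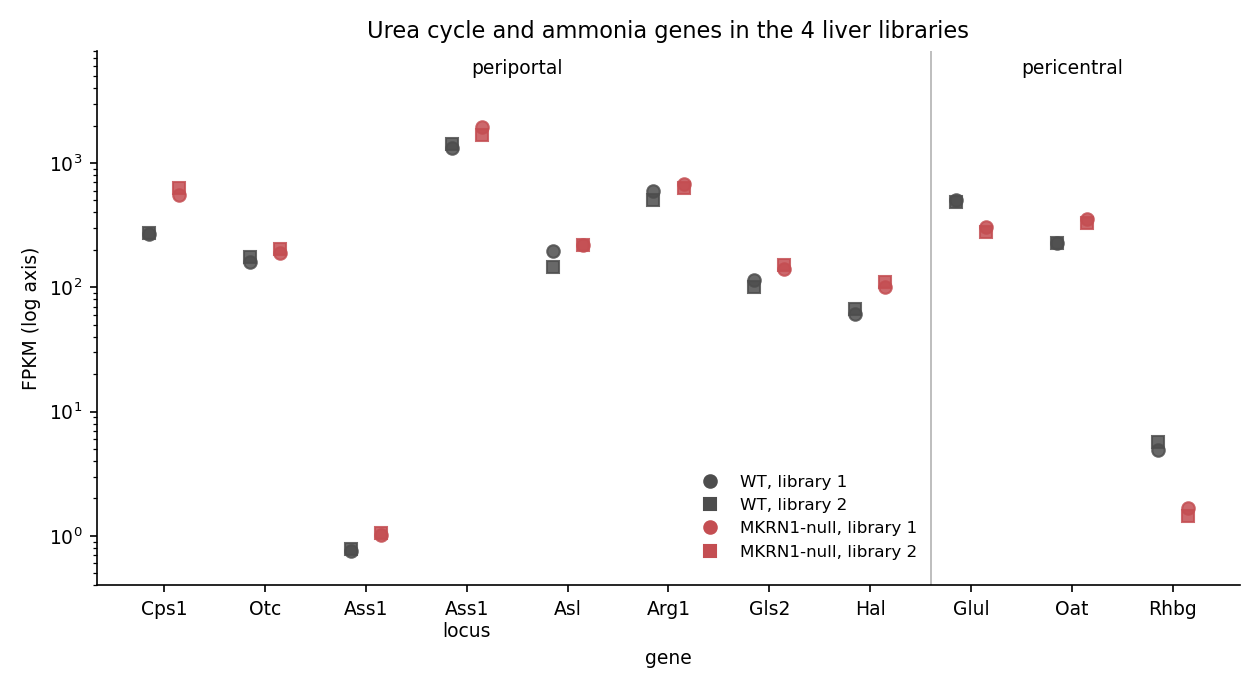
FPKM of each member in the 4 liver libraries, on a log axis, with 1 point per library (grey WT, red MKRN1-null) and no averaging; "Ass1 locus" is the sum of the entries named Ass1 and Gm5424. The MKRN1-null points lie above both WT points for the 7 periportal genes and Oat. They lie below both for Glul (305 and 277 against 501 and 490) and Rhbg (1.68 and 1.44 against 4.88 and 5.67). The share of all genes tested that separated in this way was not counted.

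The libraries held 6.05 to 7.46 gigabases of aligned sequence in liver and 5.72 to 9.24 in fat, as coverage divided by FPKM gives it. Mkrn1 was at 9.42 and 10.1 FPKM in WT liver and at 2.86 and 2.21 in MKRN1-null liver, and at 16.8 and 19.3 against 4.58 and 2.90 in fat, so the labels of genotype held in every library, with some Mkrn1 signal left. The 4 hepatocyte markers found of 5 summed to between 50170 and 60450 FPKM in liver and to at most 23.3 in fat, and the adipocyte markers to between 16040 and 39510 in fat. MKRN1-null fat library 2 held skeletal muscle RNA, with 68380 FPKM over 6 muscle genes against 28.6 to 189.9 in the other fat libraries. Within liver, marker genes of some non-hepatocytes moved with the genotype, as described below.

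The urea cycle begins with Cps1 (carbamoyl phosphate synthetase 1, Entrez 227231, mm10 chr1:67123027-67231267, plus strand), the mitochondrial enzyme that fixes free ammonia and sets the pace of the cycle. Cps1 was at 269 and 275 FPKM in WT liver and at 548 and 632 in MKRN1-null liver. The WT libraries were nearly equal, and both MKRN1-null libraries lay far above them. The means were 272 ± 3.91 and 590 ± 58.8 (SD, n = 2 each), and the log2 fold change was 1.11 ± 0.10 (SE, limma, adjusted p = 0.0119). Leaving out each library in turn gave log2 fold changes of 1.01 to 1.21 and adjusted p of 0.0266 to 0.0641, the last without MKRN1-null library 2. In WT liver Cps1 ranked below Arg1 and Glul, whereas in MKRN1-null liver it lay above Glul in both libraries and overlapped Arg1 (672 and 630).

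Otc (ornithine transcarbamylase, Entrez 18416, chrX:10252305-10321024, plus strand) joins carbamoyl phosphate to ornithine. It was at 159 and 176 FPKM in WT liver and at 187 and 204 in MKRN1-null liver. The groups did not overlap, but the difference of 0.23 ± 0.10 (log2, SE) did not pass (limma, adjusted p = 0.161). Asl (argininosuccinate lyase, Entrez 109900, chr5:130011258-130024381, minus strand), which releases arginine, was at 194 and 147 FPKM in WT liver and at 217 in both MKRN1-null libraries. Its WT libraries differed from each other by more than WT library 1 differed from the MKRN1-null libraries, and the log2 difference of 0.36 ± 0.15 did not pass (limma, adjusted p = 0.148). Arg1 (arginase 1, Entrez 11846, chr10:24915207-24927470, minus strand), which splits arginine into urea and ornithine, was the most abundant of the 10 entries by name. It was at 592 and 507 FPKM in WT liver and at 672 and 630 in MKRN1-null liver, a log2 difference of 0.25 ± 0.11 (limma, adjusted p = 0.174). None of these 3 genes passed under any of the 14 alternative settings in which each was fitted.

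Ass1 (argininosuccinate synthetase 1, Entrez 11898, chr2:31470270-31520670, plus strand) was the exception in level, at 0.750 and 0.780 FPKM in WT liver and 1.01 and 1.05 in MKRN1-null liver. Those values do not describe the locus. The deposited annotation places a second entry, Gm5424 (Entrez 432466), at chr2:31470308-31520629 on the same strand, inside Ass1. Both entries have 16 exons, 14 of which share start and end, and 1552 of the 1631 exon bases of Ass1 (95.2%) belong to both. StringTie assigned nearly all of the signal to the Gm5424 entry, at 1309 and 1414 FPKM in WT liver and 1957 and 1676 in MKRN1-null liver, which is 99.9% of the sum in every liver library. RefSeq lists Gm5424 as a transcribed pseudogene on chromosome 10, and GENCODE M21 gives the transcript Gm5424-201 there, at chr10:62071123-62072362. Over the 1239 coding bases of Ass1 the chromosome 10 copy differs at 6 positions (99.52% identity). A stretch of coding bases 370 to 429 of Ass1 and the matching stretch of the copy are shown because 2 of the 6 differences, in capitals, lie in it, and because the rest of the stretch cannot tell the copies apart. Both are 5′ to 3′ from GENCODE M21 transcripts on GRCm38.
Ass1: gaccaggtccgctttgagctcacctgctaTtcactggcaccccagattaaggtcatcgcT
Gm5424: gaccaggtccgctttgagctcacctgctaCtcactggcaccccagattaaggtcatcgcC

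The coverage of the locus was spread over all 16 exons of the Gm5424 entry, and in each of the 16 both MKRN1-null libraries exceeded both WT libraries. The ratio ran from 0.36 to 0.46 (log2) along the exons. In the Ass1 entry the coverage per aligned gigabase was 2.73 to 2.99 in the last exon of the 4 livers, 3.07 in exon 2 of MKRN1-null library 1, and at most 0.91 in exons 3 to 15. The 2 entries were summed as a locus after the values had been seen. The sum was 1310 and 1415 FPKM in WT liver and 1958 and 1677 in MKRN1-null liver, higher than any other member. The groups did not overlap, with means of 1363 ± 74.4 and 1818 ± 199 (SD, n = 2 each), and the log2 fold change of 0.41 ± 0.12 missed the threshold (limma, adjusted p = 0.0749). The Ass1 entry was tested only because both MKRN1-null libraries passed 1 FPKM, and its log2 difference was 0.20 ± 0.10 (limma, adjusted p = 0.195). How much of the summed signal came from the chromosome 10 copy was not tested.

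**Figure D2:**
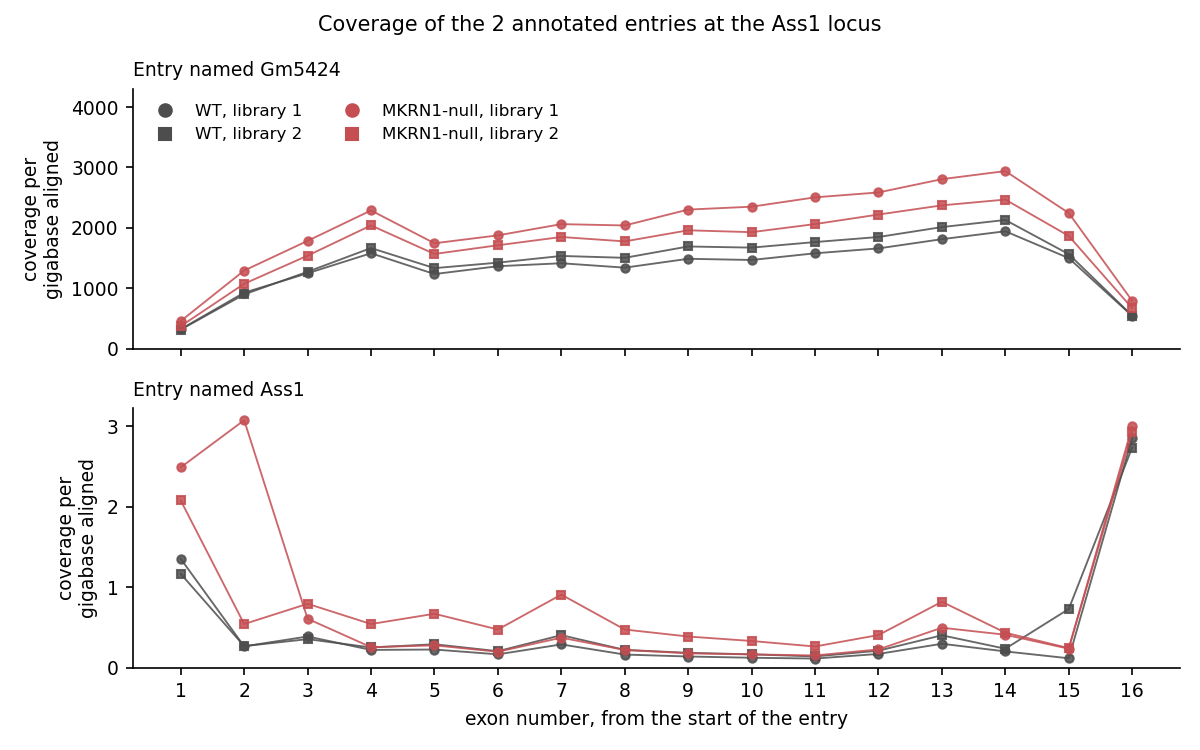
Coverage per gigabase of aligned sequence in each exon of the entries named Gm5424 (top) and Ass1 (bottom), with 1 line per liver library and linear axes of different height. The Gm5424 entry reaches 1943 to 2940 in exon 14, while the Ass1 entry does not exceed 3.07 in any exon.

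Gls2 (liver-type glutaminase, Entrez 216456, chr10:128194635-128210004, plus strand) releases ammonia from glutamine next to Cps1 in periportal mitochondria. It was at 115 and 101 FPKM in WT liver and at 140 and 151 in MKRN1-null liver. The groups did not overlap and the MKRN1-null mean was 1.35-fold higher, with a log2 fold change of 0.43 ± 0.10 (limma, adjusted p = 0.0475). The call was the weakest of the 6 and held in 3 of 14 alternatives, of which the summed Ass1 locus left the Gls2 values as they were. The log2 fold change was 0.34 to 0.52 when a library was left out. With a replicate block the adjusted p was 0.085 by limma. Of its 3 transcript entries NM_001033264 carried most of the signal, at 111, 98.4, 133.8 and 145 FPKM. The last exon overlaps the opposite-strand gene Spryd4 by 95 bases, and whether strand was used in assigning reads is not given in the sources used here.

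Hal (histidine ammonia-lyase, Entrez 15109, chr10:93488768-93516761, plus strand) frees ammonia from histidine in the first step of its breakdown. It was at 61.5 and 66.5 FPKM in WT liver and at 101 and 110.0 in MKRN1-null liver. All MKRN1-null values lay above all WT values, 1.65-fold on average, and the log2 fold change was 0.71 ± 0.09 (limma, adjusted p = 0.0172). When each library was left out the log2 fold change stayed between 0.65 and 0.77, and the adjusted p rose to 0.0527 without WT library 1, 0.0549 without MKRN1-null library 1 and 0.1 without MKRN1-null library 2.

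Glul (glutamine synthetase, Entrez 14645, chr1:153899929-153909723, plus strand) makes glutamine from glutamate and ammonia in the innermost pericentral hepatocytes. It was at 501 and 490 FPKM in WT liver and at 305 and 277 in MKRN1-null liver. The genotypes were clearly apart, with means of 495 ± 7.77 and 291 ± 19.5 (SD, n = 2 each). The gene fell 1.70-fold, by 0.77 ± 0.09 on the log2 scale (limma, adjusted p = 0.0159). Without MKRN1-null library 2 the adjusted p was 0.0918, without WT library 1 it was 0.0507, and in a fit of all 8 libraries, in which liver shares its spread with fat, it was 0.218. The Glul entry also shares 108 bases at its start with the microRNA gene Mir8114 on the same strand.

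Rhbg (Rh family B glycoprotein, Entrez 58176, chr3:88242874-88254684, minus strand) carries ammonia across the basolateral membrane of pericentral hepatocytes. It was at 4.88 and 5.67 FPKM in WT liver and at 1.68 and 1.44 in MKRN1-null liver. Both MKRN1-null values were below both WT values, and the log2 fold change of -1.29 ± 0.11 was the largest of the 10 members (limma, adjusted p = 0.0109). The threshold was passed in 12 of the 13 alternatives that fitted it and missed without MKRN1-null library 2 (0.0727). Its level was far below that of Glul in every liver, at 0.975% and 1.16% of Glul in WT liver and 0.55% and 0.521% in MKRN1-null liver, so it also fell relative to Glul within the libraries.

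Oat (ornithine aminotransferase, Entrez 18242, chr7:132557475-132576398, minus strand) turns ornithine into glutamate semialdehyde, and in liver it sits with glutamine synthetase in pericentral hepatocytes. In contrast to Glul it was at 229 in both WT livers and at 352 and 327 FPKM in MKRN1-null liver. The WT libraries hardly differed (SD 0.109), and the mean was 1.49-fold higher in MKRN1-null liver with a log2 fold change of 0.57 ± 0.09 (limma, adjusted p = 0.021). The size was just below the 0.58 of the looser rule. The adjusted p was 0.0631 without WT library 1, 0.0873 without MKRN1-null library 1, 0.0992 without MKRN1-null library 2 and 0.113 in the fit of all 8 libraries.

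The ratio of Cps1 to Glul within a library does not depend on how libraries are scaled to each other. It was 0.538 and 0.562 in WT liver and 1.80 and 2.28 in MKRN1-null liver, so the more abundant of the pair changed. The ratio of Cps1 to Oat moved less, from 1.18 and 1.20 to 1.56 and 1.93. The ratio of Glul to Oat, both pericentral, was 2.19 and 2.14 in WT liver and 0.866 and 0.846 in MKRN1-null liver.

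**Figure D3:**
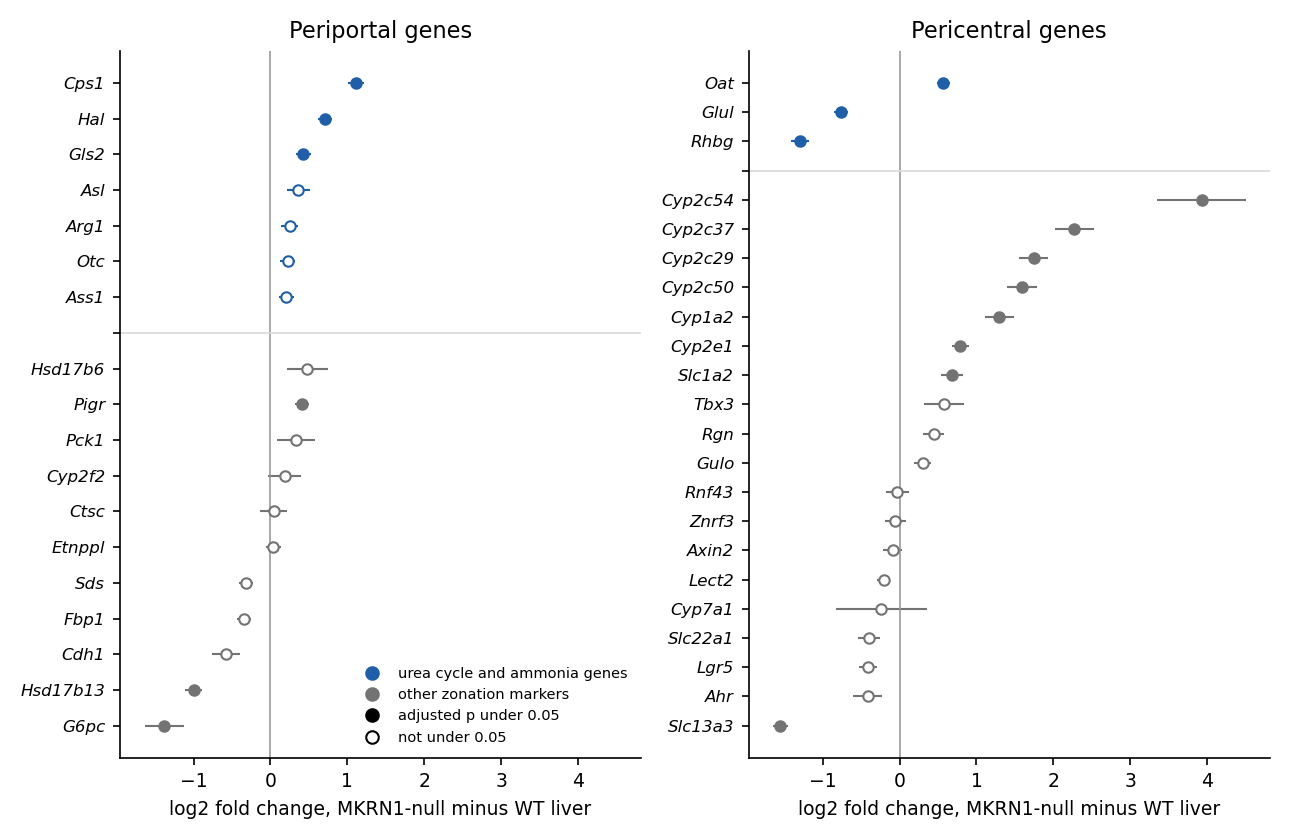
Log2 fold change (MKRN1-null minus WT liver) with its SE for the periportal (left) and pericentral (right) members in blue and for the other zonation markers reported here in grey; filled points had an adjusted p under 0.05 by limma. The 7 periportal members lie right of 0, Glul and Rhbg lie left of it, and cytochrome P450 genes of the pericentral list lie furthest right. The side of the Ass1 entry was fixed by the filter.

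Other markers of the same zones did not move as 2 blocks. Over all genes tested, limma called 2.51% higher and 16.9% lower. Of 12 other periportal markers tested, 1 was called higher and 3 lower by limma. Pigr, which carries antibodies into bile, rose 1.33-fold, while among those that fell were G6pc (2.64-fold) of glucose output and Hsd17b13 (2.01-fold) of lipid droplets. Of 19 other pericentral markers, 7 rose and 1 fell. The risers were the cytochrome P450 genes Cyp2e1 (1.73-fold in mean FPKM), Cyp1a2 (2.49-fold), Cyp2c29 (3.33-fold), Cyp2c37 (4.89-fold), Cyp2c50 (2.98-fold) and Cyp2c54 and the glutamate transporter Slc1a2 (1.65-fold), and the carboxylate transporter Slc13a3 fell 3.38-fold. Cyp2c54 was at 3.46 and 13.8 FPKM in WT liver and at 106 and 141 in MKRN1-null liver, with a log2 fold change of 3.06 without WT library 1 and 4.79 without WT library 2. The Cyp2c genes are a family of related copies, and how reads were divided among them was not tested. Without MKRN1-null library 2, 0 genes of either list passed, and by the looser rule 6 of the pericentral list were then higher and 2 lower. The counts were 0 and 0 in the periportal and 3 and 1 in the pericentral list without MKRN1-null library 1, and 0 and 1, and 5 and 1, without WT library 1. TPM in place of FPKM gave 0 and 5 in the periportal list, and 259 higher and 2866 lower over 11865 genes. The medians were -0.14 for the periportal and 0.30 for the pericentral list, against 0.36 and -0.77 for the 7 and 3 members, which are the values of Asl and Glul. No test of these differences was made.

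The Wnt and beta-catenin list of 27 genes, on which the pericentral programme depends, had 22 tested members, of which 0 were called higher and 1 lower at the adjusted threshold. Among all genes tested the shares were 2.51% and 16.9%. The exception was the Wnt co-receptor Lrp5, at 12.8 and 9.46 FPKM in MKRN1-null liver and 1.84-fold higher in WT liver (log2 -0.84), which missed the threshold without WT library 1 (limma, adjusted p = 0.0816), WT library 2 (0.0775) and MKRN1-null library 2 (0.103). By the looser rule the counts were also 0 and 1, against 2.25% and 13.4% of all genes. The feedback target Axin2 (log2 -0.09, limma, adjusted p = 0.629) and the receptor Lgr5 (-0.41, 0.0719) did not pass, and the median of the list was -0.07. Median-of-ratios scaling gave 2 higher and 0 lower in this list, whereas TPM gave 0 higher and 5 lower of 24 tested, and 2 were lower without WT library 2.

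The partners of the urea cycle gave no call, where 2.51% of all genes tested were called higher and 16.9% lower. Of 10 tested of 13, which supply the activator, bicarbonate, ornithine, aspartate and glutamate, 0 were higher and 0 lower by limma and 0 by the looser rule, with a median of -0.05. The nearest was Car5a, the mitochondrial carbonic anhydrase that feeds bicarbonate to Cps1, at 46.3 and 42.1 against 57.3 and 55.5 FPKM (log2 0.35, limma, adjusted p = 0.053). Nags, whose product is the obligate activator of Cps1, was at 24.1 and 30.5 in WT liver and at 34.7 and 33.1 in MKRN1-null liver (log2 0.31, limma, adjusted p = 0.149). Arg2, the second arginase, stayed between 0.0870 and 0.228 FPKM in liver, and the ammonia channels Rhcg and Rhag were listed at 0 in all 4 livers. Median-of-ratios scaling and quantile normalization each called 1 gene of this list higher.

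Of 8 tested genes of glutamine and ammonia transport, 1 was called higher and 3 lower, against 2.51% and 16.9% of all genes tested. Among those that fell were the transporters Slc1a5 (log2 -0.67) and Slc7a7 (-0.75), from WT levels of 1.24 to 2.30 FPKM, and Slc1a2 rose (0.69). The periportal glutamine transporter Slc38a3 was at 587 and 447 FPKM in WT liver and at 772 and 777 in MKRN1-null liver, past the looser rule (log2 0.60) but not the adjusted threshold (limma, adjusted p = 0.0556). Quantile normalization left 1 gene higher and 0 lower, and without MKRN1-null library 1 or 2 the counts were 0 and 0. Without either WT library Slc1a5 and Slc7a7 failed the filter and were not tested.

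Histidine, proline and other amino acids feed nitrogen into the cycle. Downstream of Hal, Uroc1, Amdhd1 and Ftcd did not pass, with Amdhd1 nearest (83.7 and 83.3 against 100.3 and 105 FPKM, log2 0.30, limma, adjusted p = 0.0584). Prodh, the first enzyme of proline breakdown, was the 1 gene called of 8 tested in the histidine and proline list (log2 0.64, 71.9 and 62.8 against 113 and 98.4 FPKM), and the call was lost whichever library was left out (limma, adjusted p of 0.0561 without WT library 1 to 0.106 without MKRN1-null library 1). Of 21 tested genes of amino acid catabolism, 7 were called higher and 0 lower, against 2.51% and 16.9% of all genes tested. The largest changes were in Hpd (0.90) of tyrosine breakdown, Gnmt (0.83) of methionine and glycine metabolism and Agxt (0.64) of glyoxylate disposal, with Aass (0.45) of lysine breakdown behind them. Hpd was at 928 and 910 FPKM in WT liver and at 1722 and 1698 in MKRN1-null liver. The glycine decarboxylase Gldc was lower by the looser rule alone (log2 -0.63, limma, adjusted p = 0.0785). The list's median was 0.25. With TPM the counts were 6 higher and 4 lower, and with median-of-ratios scaling 8 and 0. Called counts were 2 higher without WT library 1, 4 without WT library 2, 1 without MKRN1-null library 1 and 0 without MKRN1-null library 2.

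Of 15 tested genes that encode known regulators of these enzymes, 1 was called higher and 1 lower, against 2.51% and 16.9% of all genes tested. Hnf4a, a nuclear receptor that hepatocyte genes need, was at 112 and 97.5 FPKM in WT liver and at 145 and 158 in MKRN1-null liver (log2 0.53, limma, adjusted p = 0.0355). Sirt5, the mitochondrial deacylase that acts on Cps1 protein, was at 13.8 and 13.6 against 8.07 and 7.39 (log2 -0.75, limma, adjusted p = 0.0152). Foxa3 was higher by the looser rule alone (0.65). Leaving out a library lost the Hnf4a call each time (adjusted p of 0.0564 to 0.173 by limma), and the Sirt5 call was lost without MKRN1-null library 1 (0.0549) and 2 (0.0975).

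**Figure D4:**
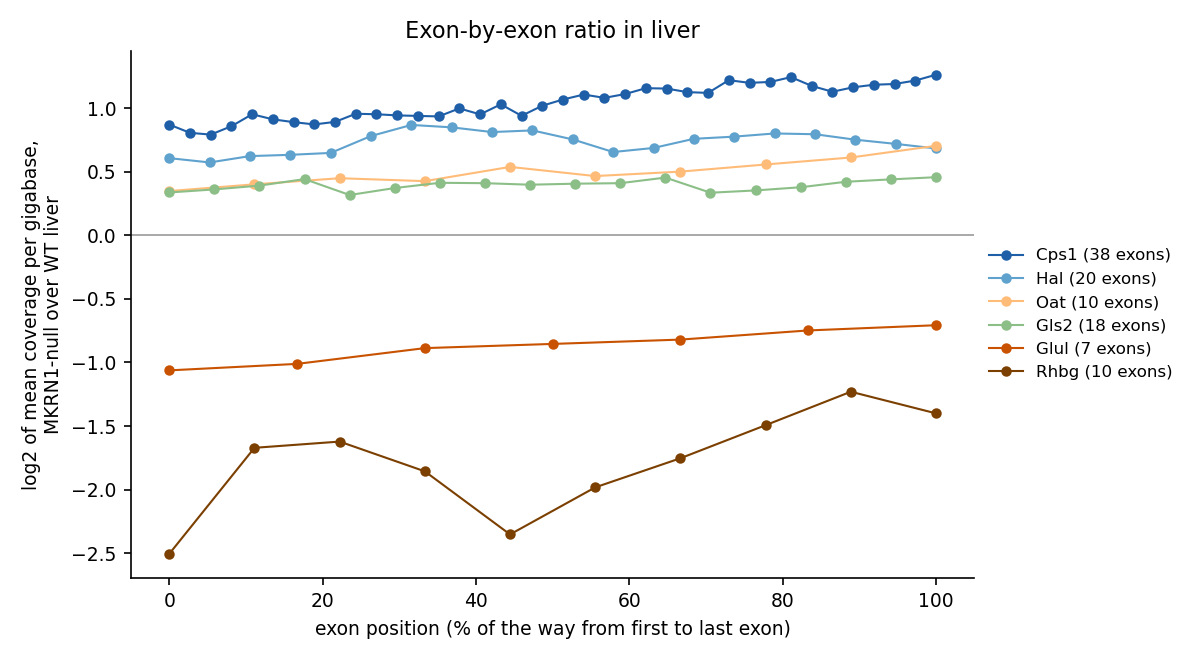
Log2 ratio of mean coverage per aligned gigabase, MKRN1-null over WT liver, in each exon of the 6 members that were called, plotted from the first exon (0%) to the last (100%). Each of the 6 genes stays on 1 side of 0 in all of its exons, and the line of Cps1 rises from 0.79 in exon 3 to 1.26 in exon 38.

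The differences were present along the whole transcripts. Exon coverage comes from the same libraries as the gene values, so the counts below describe the transcripts and add no replicates. In Cps1 both MKRN1-null libraries exceeded both WT libraries in 38 of 38 exons, in Hal in 20 of 20, in Gls2 in 18 of 18 and in Oat in 10 of 10. In Glul they lay below in 7 of 7 exons and in Rhbg in 10 of 10. Among genes that missed the threshold, they lay above in 9 of 10 exons of Otc and 6 of 8 of Arg1. In Asl it was 16 of 17. The Ass1 locus also missed it. There they lay above in 16 of 16 exons of the Gm5424 entry and in 9 of 16 of the Ass1 entry. The ratios rose toward the 3′ end in several genes. In Oat they went from 0.35 in the first exon to 0.70 in the last, and in Glul from -1.06 to -0.71. Coverage was also shifted toward the later exons in MKRN1-null liver as a whole. Over 1009 genes with a single transcript, at least 6 exons and over 20 FPKM in every liver, the median log2 ratio of coverage in the later to that in the earlier exons was 0.352 and 0.392 in WT liver and 0.474 and 0.487 in MKRN1-null liver. Its part in the fold changes was not tested.

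Marker genes of some other liver cell types moved with the genotype too. Of all genes tested, 2.51% were called higher and 16.9% lower. The 6 cholangiocyte genes summed to 252 and 210 FPKM in WT liver and to 37.7 and 32.1 in MKRN1-null liver, and of 5 tested 4 were called lower, with Spp1 the largest contributor and Cftr at 0 in both MKRN1-null libraries. Stellate cell and fibroblast genes summed to 213 and 156 against 57.8 and 61.0, with 4 of 5 lower. Endothelial genes summed to 50.6 and 32.4 against 20.4 and 23.6, with 1 of 5 lower. Kupffer cell and macrophage genes overlapped between genotypes in sum (84.8 and 35.4 against 40.6 and 47.0), with 1 of 5 lower. Of these 5, 2 had a log2 change above 0. The 4 hepatocyte markers summed to 56570 and 50170 against 59280 and 60450, with 1 of 4 higher. In the adipocyte list Cidec and Fabp4, which fatty hepatocytes and macrophages also express, fell in liver, and Adipoq, Plin1 and Lep were at or below 0.225 FPKM in every liver. Leaving out a library changed these counts. Without MKRN1-null library 2 they were 1 lower in the cholangiocyte list and 0 in the stellate, endothelial and Kupffer cell lists, and without MKRN1-null library 1 they were 1, 3, 0 and 0 lower. Without WT library 1 the Kupffer cell list gave 2 higher and 1 lower, and without WT library 2 it gave 3 lower and the endothelial list 4 lower. Without either WT library only 2 cholangiocyte genes were tested, and 1 was lower. The part of cell composition in the values of the 10 members was not tested.

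The 250 bases upstream of the annotated start are shown for Glul, Oat and Hal, 3 called members with an entry in the RefSeq promoter table (GRCm38.p6), because Glul and Oat share a zone and moved in opposite directions. Entries matched for 5 of the 10 members, Ass1, Glul, Hal, Oat and Otc. They lie at chr1:153899679-153899928 (plus strand) for Glul, chr7:132576399-132576648 (minus strand) for Oat and chr10:93488518-93488767 (plus strand) for Hal, are written 5′ to 3′ on the strand of the gene, and have matches to the CCAAT box (CCAAT, or ATTGG on the other strand) and the TATA box (TATAAA, or TTTATA on the other strand) in capitals.
Glul: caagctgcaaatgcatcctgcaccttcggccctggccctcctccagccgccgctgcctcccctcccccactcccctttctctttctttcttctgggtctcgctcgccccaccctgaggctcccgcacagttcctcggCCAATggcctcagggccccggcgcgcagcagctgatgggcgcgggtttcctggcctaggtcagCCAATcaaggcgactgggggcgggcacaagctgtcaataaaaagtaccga
Oat: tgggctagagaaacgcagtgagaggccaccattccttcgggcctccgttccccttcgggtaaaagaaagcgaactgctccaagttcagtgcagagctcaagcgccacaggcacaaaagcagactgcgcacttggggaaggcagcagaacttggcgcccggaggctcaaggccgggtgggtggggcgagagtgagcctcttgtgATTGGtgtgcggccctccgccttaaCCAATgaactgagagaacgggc
Hal: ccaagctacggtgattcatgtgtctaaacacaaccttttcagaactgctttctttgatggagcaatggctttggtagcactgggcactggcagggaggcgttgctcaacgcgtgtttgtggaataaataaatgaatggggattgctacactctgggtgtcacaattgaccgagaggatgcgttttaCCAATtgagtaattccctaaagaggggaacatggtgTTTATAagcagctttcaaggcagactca

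A set of 6 motifs was searched on both strands of the 250 bases, and the matches given do not overlap each other. The CCAAT box was found 2 times in Glul, 113 and 50 bases before the start, 2 times in Oat, 47 and 22 bases before it, and once in Hal, 64 bases before it. Of 32851 promoters 33.8% hold CCAAT. Hal alone of the 5 held a TATA box, 28 bases before the start (12.4% of promoters), and the TCF/LEF core CTTTGA, 199 bases before it (13.8% of promoters). The cores of the cAMP response element (TGACG, 17.8%) and of the glucocorticoid response element (TGTTCT, 16.1%) and the C/EBP-like motif TTGCNNNAA (8.3%) had no match in the 5 windows. A match describes letters and not a bound factor.

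**Figure D5:**
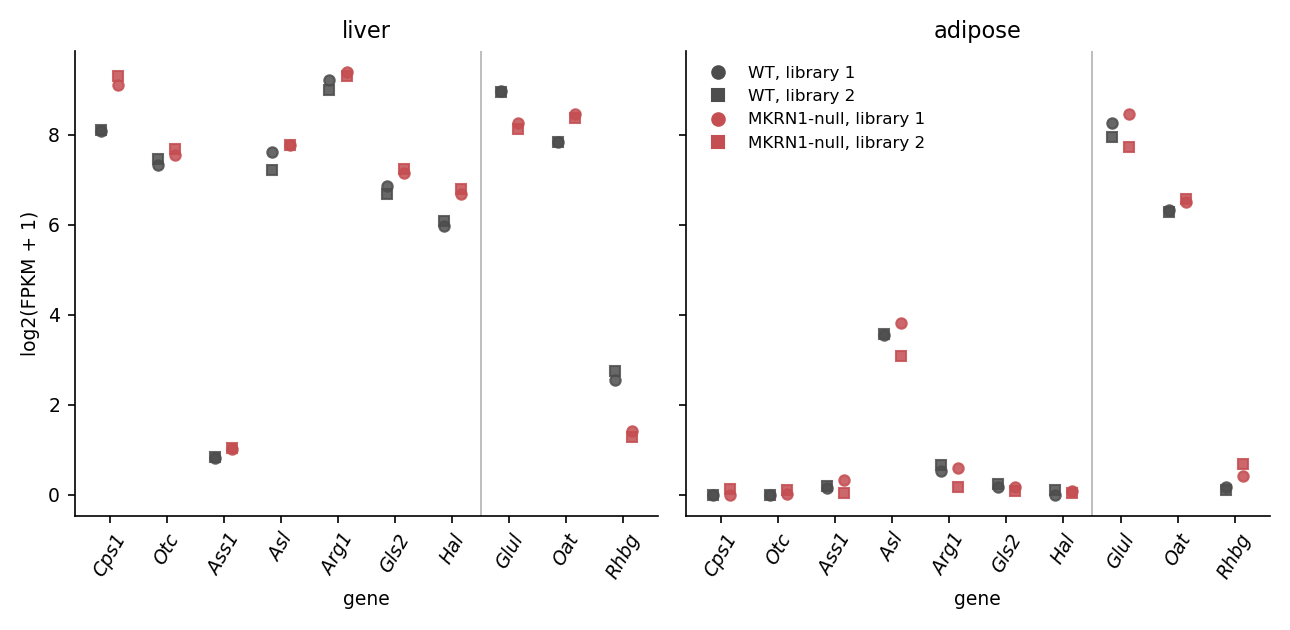
Level of each member as log2(FPKM + 1) in liver (left) and subcutaneous fat (right), with 1 point per library. Glul and Oat stay above 6 in fat, Asl lies between 3 and 4, and the other members lie below 1.

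Subcutaneous fat held few of these transcripts. Cps1 was listed at 0 in 3 of 4 fat libraries and at 0.0816 FPKM in the fourth, and Otc, Ass1, Arg1, Gls2, Hal and Rhbg were at or below 0.590 FPKM. Glul was the exception at 307 and 248 FPKM in WT fat and 353 and 210.2 in MKRN1-null fat. Oat followed at 79.2 and 76.2 against 89.9 and 94.4, and Asl at 10.7 and 10.8 against 13.1 and 7.50. The Ass1 locus summed to 11.4 and 9.40 in WT fat and to 17.6 and 2.62 in MKRN1-null fat.

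Between the tissues, Glul, Oat and Asl were the members above 1 FPKM in both, and all 3 were higher in WT liver than in WT fat. The log2 differences were 0.84 ± 0.13 (SE) in Glul (limma over 12799 genes, adjusted p = 0.00275), 1.55 in Oat and 3.86 in Asl, where 17.9% of all genes were called higher in liver and 62.3% lower. The other 6 members that were tested, Cps1, Otc, Arg1, Gls2, Hal and Rhbg, were below 1 FPKM in WT fat and passed the filter only through liver, so that their calls were fixed by the filter, and the size of their differences follows the pseudocount (8.09 in Cps1 and 2.51 in Rhbg with a pseudocount of 1, 11.4 and 4.78 with 0.1). Ass1 was not tested by its own entry.

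By genotype, 3 members were tested in fat and 0 passed by limma, as did 0% of 12164 genes at the adjusted threshold and 6.07% by the looser rule, where 0 members passed. At an unadjusted p under 0.05 there were 785 genes. The log2 differences were -0.10 ± 0.31 in Asl, -0.02 ± 0.39 in Glul and 0.24 ± 0.25 in Oat (SE). Oat alone had both MKRN1-null values above both WT values. In Glul and Asl MKRN1-null library 1 lay above and library 2, which holds the muscle RNA, below both WT libraries. Without library 2 the log2 differences were 0.36 in Glul and 0.27 in Asl (limma, adjusted p = 0.478 and 0.433). Without library 1 Asl passed, at -0.47 (limma, adjusted p = 0.0329). Median-of-ratios scaling also turned the sign of both, to 0.21 in Glul and 0.11 in Asl.

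Whether liver and fat responded differently was tested as the interaction of tissue and genotype. Of 9917 genes 0% passed by limma (766 at an unadjusted p under 0.05), and the members gave 0.46 in Asl, -0.75 in Glul and 0.32 in Oat (log2, liver minus fat, adjusted p = 0.823, 0.731 and 0.778). The fall of Glul in liver was therefore not shown to differ from the change in fat. Without MKRN1-null fat library 2 the Glul interaction was -1.12 (limma, adjusted p = 0.0438), and without MKRN1-null fat library 1 the Asl interaction was 0.83 (limma, adjusted p = 0.0359).

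Over the 8 libraries, the genes whose levels followed Cps1 most closely among those tested in liver were Cyp4f15, BC024386 and Cyp2d13, with Pearson r from 0.9998 to 0.9999 on the log2(FPKM + 1) scale. All 3 were near 0 in fat, and their means were 1.60, 1.71 and 1.89 times as high in MKRN1-null as in WT liver. For Glul they were Ugdh (r = 0.977), Trap1 (r = 0.974) and Edf1 (r = 0.972). Ugdh, which makes UDP-glucuronate, was at 83.7 and 85.5 FPKM in WT liver, at 38.7 and 31.1 in MKRN1-null liver and at 16.9 to 35.1 in fat. The points share 2 tissues and the same libraries, so these values describe likeness only.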

How the data were processed

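The 4 liver and 4 fat libraries of poly(A) RNA had been aligned to mm10 with HISAT2 and processed with SAMtools, and the authors deposited StringTie 1.3.3b tables that give FPKM, TPM and coverage for 36780 transcripts (submitters' processing notes and file headers). The other 2 tools come without version in the sources. These values had been scaled to library depth and are not counts. The published methods describe other tools for the study's own tests.

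The FPKM of all transcripts of a gene ID were added, and symbols were taken from RefSeq for 24462 of 24532 gene IDs. Genes with an FPKM of 1 or more in any 2 of the 4 libraries compared were tested. limma 3.58.1 in R 4.3.3 was fitted to log2(FPKM + 1) with a variance trend, and p was adjusted by Benjamini-Hochberg over all genes tested. Fold changes on this scale understate the change of low genes. A fold given as such is a ratio of mean FPKM.

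The members and lists were chosen with earlier results of these data known. Every member was named, Mkrn1, and from each list at most 6 genes with the largest changes past either threshold. The looser rule borrows its fold threshold from the published methods, and its p is unadjusted and from limma. Any other gene named was added after its values were seen. A few list genes are counted but not reported here by name. The published methods call the replicates independent, and no source says whether liver and fat of a number came from the same mouse. Deviations of same-numbered libraries correlated at 0.007 in liver and 0.113 in fat. Groups are said not to overlap where both values of a genotype lie beyond both of the other. The share of all genes for which this holds was not counted. Coverage per exon was divided by aligned gigabases. The fitting procedure was tested on simulated data. Alternatives were the pseudocount, TPM, the filter, scaling, the trend, a replicate block, a fit of all 8 libraries and leaving out each library.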

Additional observations from a re-analysis of the deposited data

How the results depend on the processing

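The count of members called in liver (6) was 4 to 6 under another pseudocount, TPM, 2 other filters, 2 other scalings, no variance trend and the summed Ass1 locus, 5 with a replicate block (Gls2, adjusted p = 0.085 by limma) and 3 with all 8 libraries in 1 fit. The replicate block changed no other count of members, but over all liver genes it gave 235 higher and 1258 lower, and among the lists 4 higher in amino acid catabolism, 0 higher and 1 lower in glutamine and ammonia transport, 0 and 3 in other periportal markers, 6 and 1 in other pericentral markers and 0 and 1 in regulators. Leaving out a library gave 0 to 5 members in liver, 0 to 1 in fat and 0 to 1 for the interaction, and 3 to 9 between WT liver and WT fat, where without a WT liver library the genes found only in liver failed the filter. The periportal median (0.36) was 0.30 with TPM, 0.55 with median-of-ratios scaling, 0.52 with quantile normalization and 0.30 to 0.52 without a library. The pericentral median (-0.77) was -0.83 with TPM, -0.58 with median-of-ratios scaling, -0.10 with a filter at FPKM 5, which removes Rhbg, and -0.84 to -0.70 without a library. In liver no member changed sign under an alternative run, whereas in fat Glul and Asl did. Of the refitted liver values of the members 112 stayed on the same side of the threshold, 23 lost and 1 gained the call, the last being the Ass1 entry under quantile normalization (adjusted p = 0.036 by limma). The summed locus was added after seeing the data. It is counted among the alternatives of every member, although it left the FPKM values of all members but Ass1 unchanged. With 2 libraries a group, the missed thresholds of Otc, Asl and Arg1 do not show that they were equal.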
